A study of Mus musculus with 16 samples.

Results

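The ATP-binding cassette (ABC) transporter family was read from the gene counts of cultured mouse brain endothelial cells. Its members were taken by symbol, as every row of the count table whose GENCODE M21 symbol starts with Abca, Abcb, Abcc, Abcd, Abce, Abcf or Abcg followed by a digit, which gave 50 of 39057 rows. Messenger RNA was sequenced from 16 primary cultures of cortical brain endothelial cells, each from a different mouse. The targeted replacement mice were *APOE3* for 8 cultures and *APOE4* for 8, and each genotype had 4 males and 4 females. Both genotypes carry a human *APOE* isoform under the endogenous mouse promoter, in every cell that uses this promoter, so the allele was not restricted to the endothelium. The mice were 21 to 28 days old, the cultures were otherwise untreated, and each held the cells of 1 cortex grown to confluence after selection in 8 µg/ml puromycin. Puromycin is itself carried out of cells by P-glycoprotein, so every culture of both genotypes had passed a selection that a member of the family can affect. The comparison asked whether *APOE* genotype goes with the transcript level of transporters of the brain endothelium.

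ABC proteins use the hydrolysis of ATP to move substrates across membranes, from drugs and their conjugates to cholesterol, phospholipids, very long chain fatty acids and heme precursors. In brain capillaries, P-glycoprotein, the breast cancer resistance protein and several multidrug resistance-associated proteins return drugs and metabolites to the blood, and the sterol transporters hand cholesterol and phospholipid to apolipoproteins such as apoE. The E and F subfamilies keep the ATPase domains but have no membrane part and work on ribosomes.

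Total counts per library were 12717847 to 18624417. The cultures had the transcripts of their labelled cell type, and all 20 brain endothelial markers were tested. Their summed level was 23743 to 25373 CPM (counts scaled to a common library size) in *APOE3* and 23786 to 26245 CPM in *APOE4*. The highest were Eng, Pecam1, Cdh5 and Vwf, and the lowest was Mfsd2a, with means of 3.46 CPM in *APOE3* and 3.36 CPM in *APOE4*. Of the 20 markers, 1 was higher (Emcn) and 1 lower (Slco1c1) with *APOE4*. Of all genes tested, 12.8% differed, 6.71% higher and 6.09% lower. The summed levels of markers of other cells were lower but above 0 for every list. Of 10 fibroblast markers 5 were tested and 1 was higher with *APOE4*, Fbln1 at 11.5 and 21.5 CPM (log2 fold change 0.90, adjusted p = 0.0054), Dpt had no count, and the list summed to 25.5 to 76.1 CPM in *APOE3* and 28.2 to 107.0 CPM in *APOE4*. Of 8 oligodendrocyte markers 2 were tested and 1 was higher, Cnp at 28.1 and 32.9 CPM (log2 fold change 0.23, adjusted p = 0.0143), while Olig1 and Olig2 had no count. The 9 markers of microglia and macrophages summed to 6.05 to 7.60 and 5.32 to 7.94 CPM, nearly all of it Cd68, with P2ry12, Itgam and C1qa at 0. The 7 astrocyte markers summed to 0.603 to 4.08 and 1.44 to 4.27 CPM with Gjb6 at 0, and the 7 neuron markers to 8.91 to 12.8 and 10.8 to 15.6 CPM, most of it Tubb3. Of the last 3 lists, 1, 1 and 2 genes were tested and 0 differed. Of the 12 pericyte and smooth muscle markers 9 were tested and 0 differed by edgeR's adjusted p, with a summed level of 192.5 to 361.5 CPM in *APOE3* and 227.2 to 344.6 CPM in *APOE4*. Most of this sum was Tagln and Acta2. Of the 9 tested, 8 had a positive log2 fold change, and the median of the 9 was 0.247. The part of the fibroblast and oligodendrocyte markers in the results was not tested. These RNA levels are of whole cultures, in which fewer cells of a type and less RNA per cell cannot be told apart.

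Of the 50 members, 31 had enough reads to be tested for a genotype difference and 19 did not. The cultures held 8 members at a count of 0 in every library, namely Abca12, which carries lipid for the skin barrier, Abca13, Abca15, Abca16, Abca8a, Abcb5, Abcb11, the bile salt export pump of the liver, and Abcc8, the sulfonylurea receptor of pancreatic beta cells. A count of 0 allows up to 3 counts, which is 0.161 to 0.236 CPM depending on the library. A further 3 members stayed at or under 3 counts in every library, namely Abca6 with at most 2 and the sterol half-transporters of gut and liver Abcg5 and Abcg8 with at most 1 and 2. The last 8 passed 3 counts in at least 1 library but were too low to test: Abca14, Abca17, Abcb4, Abcc2, Abcc9, Abcc12, Abcd2 and Abcg4. Among them, Abcc9, the sulfonylurea receptor of vascular mural cells, had 1 to 8 counts in each library, and Abcg4, a sterol transporter of neurons and glia, had 0 to 8.

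The strongest transcripts of the family were those of drug efflux. Per kilobase of exon, which allows levels to be compared between genes, Abcc4 (multidrug resistance-associated protein MRP4) had a mean level of 108.0 ± 16.8 CPM per kilobase (SD, n = 16), above 97.3% of the genes tested. Abcb1a, which encodes P-glycoprotein, had 88.6 ± 5.98 CPM per kilobase (percentile 96.7) and Abcg2, the breast cancer resistance protein, 64.0 ± 3.37 (percentile 95.1). Next came Abca3, a phospholipid transporter best known from the lamellar bodies of lung, with 61.3 ± 3.67 CPM per kilobase, a level within the spread of that of Abcg2. The cholesterol exporter Abca1 followed with 33.7 ± 2.09 and the ribosome-associated Abcf1 with 32.3 ± 1.37 CPM per kilobase, a difference smaller than the SD of Abca1. The second P-glycoprotein gene, Abcb1b, had 9.40 ± 1.12 CPM per kilobase and the cholesterol transporter Abcg1 5.86 ± 0.918. At the low end Abca9, Abcb6, Abca8b and Abcg3 had mean levels of 0.214, 0.198, 0.186 and 0.166 CPM per kilobase. The order of the first 4 was the same with the length of the longest transcript in place of all exons, where Abcb1a, Abcg2 and Abca3 came to 97.2, 91.3 and 88.7 CPM per kilobase.

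**Figure D1:**
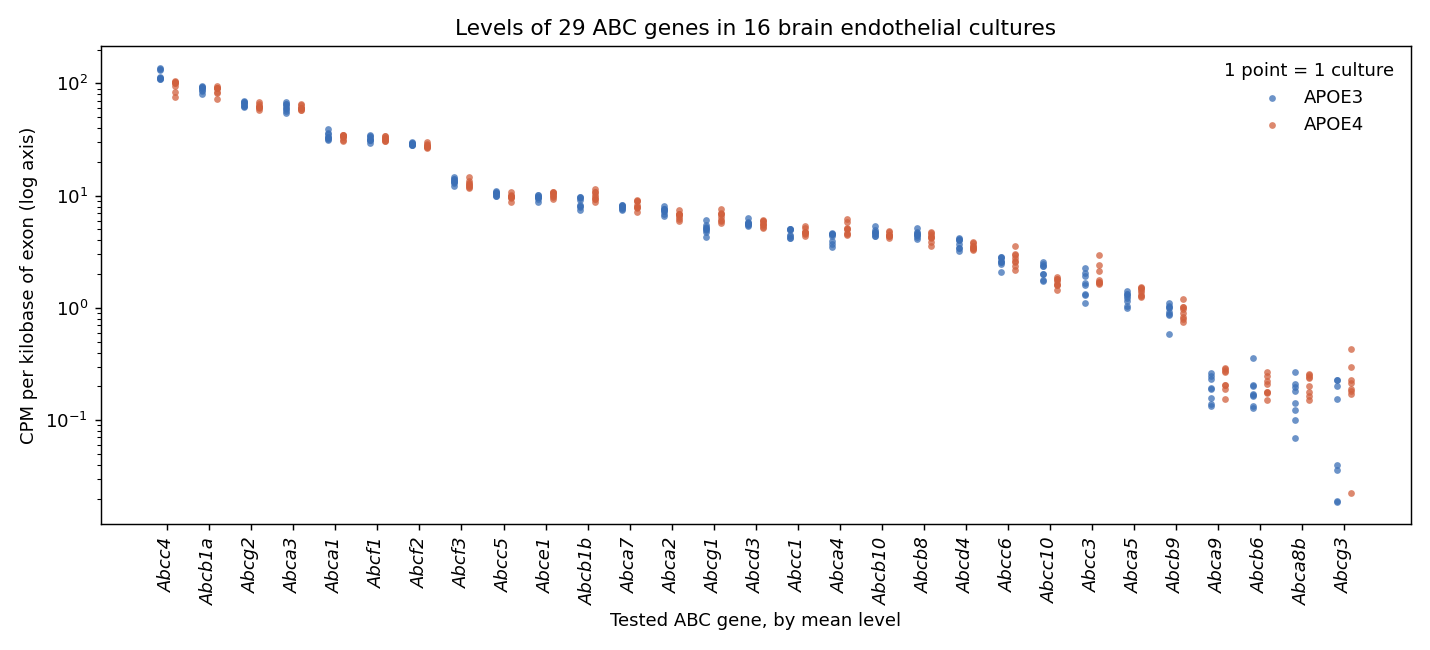
Level of each of 29 tested ABC genes in CPM per kilobase of exon on a log axis, with 1 point per culture, *APOE3* at the left and *APOE4* at the right of each position, ordered by the mean. Abcc4, Abcb1a, Abcg2 and Abca3 lead the family, and the *APOE4* points of Abcc4 lie below all its *APOE3* points.

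Taken over all 16 cultures, 6 of the 31 tested members differed between genotypes by edgeR's quasi-likelihood test with Benjamini-Hochberg adjustment over all 12481 genes tested, a share of 19.4% beside 12.8% of all genes. With *APOE4*, 3 were higher (6.71% of all genes) and 3 lower (6.09% of all genes). Transcripts of Abcg1, Abca4 and Abcb1b were higher, and those of Abcc4, Abcc10 and Abca2 lower. At an unadjusted p under 0.05 by the same test were 8 of the 31 members, beside 28.98% of all genes. Cell cycle transcripts were also higher with *APOE4*. With a score of these transcripts in the fit, 0 of the 6 and 0 of the 12481 genes were called. The members as a group did not lie to one side: their median log2 fold change was 0.00066 against -0.00022 over all genes, 16 of 31 were positive against 49.9% of all genes, and the median size of the change was 0.085 against 0.089 on the log2 scale.

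**Figure D2:**
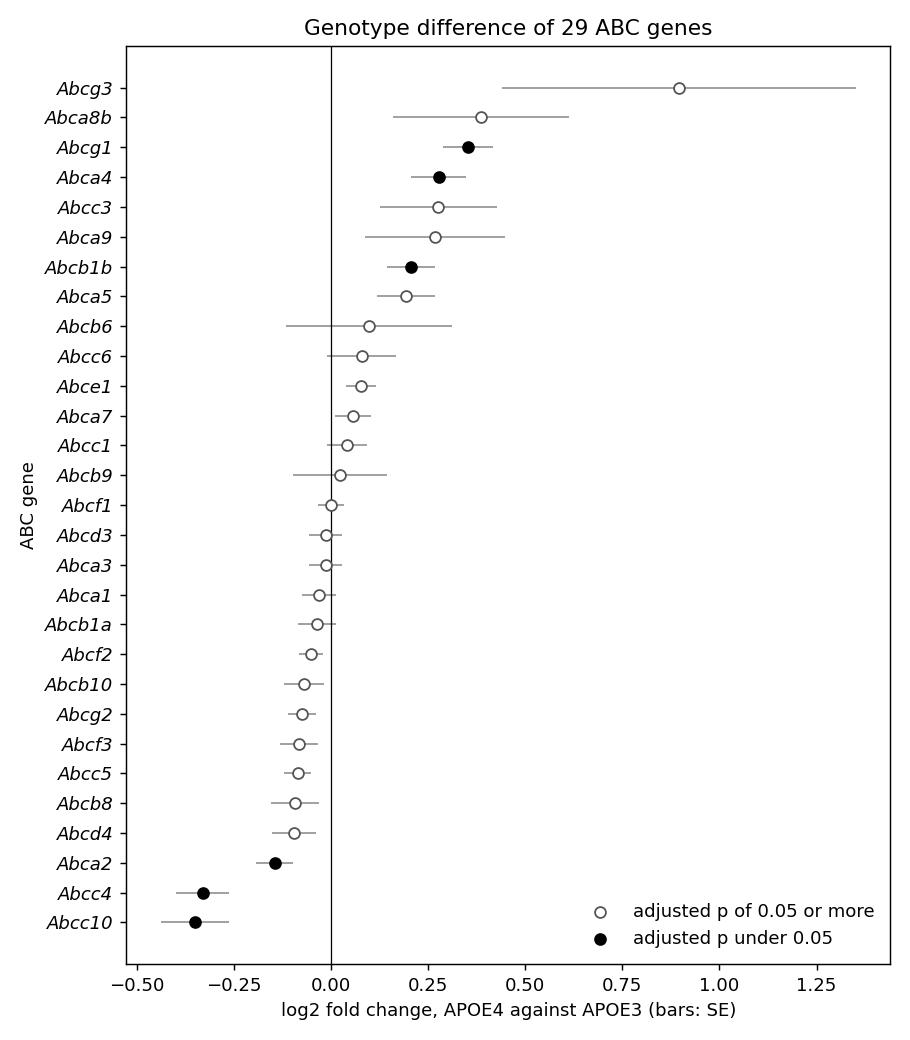
Log2 fold change of 29 tested ABC genes, *APOE4* against *APOE3*, with bars of 1 standard error from edgeR, where filled points have an adjusted p under 0.05. Abcc10, Abcc4 and Abca2 are filled on the lower side and Abcb1b, Abca4 and Abcg1 on the higher side, and the point furthest out, Abcg3, has the longest bar.

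The DNA just upstream of a gene's start helps set its transcription, and 38 members, 23 of them tested, had at least 1 entry in RefSeq's promoters of GRCm38.p6. Those of 4 of the 6 members that differed are shown, 250 bases before the entry's start site that lies nearest to the GENCODE start. Abcg1 had no entry, and the entry of Abcc10 lies inside its GENCODE gene. Searched on both strands were the E-box CACGTG, the nuclear receptor half-site AGGTCA, the GC box GGGCGG, the box CCAAT, the TATA box TATAAA and the xenobiotic response element TTGCGTG, with matches in capitals, and no match shown overlaps another.
Abcc4, chr14:118706220-118706469, minus strand: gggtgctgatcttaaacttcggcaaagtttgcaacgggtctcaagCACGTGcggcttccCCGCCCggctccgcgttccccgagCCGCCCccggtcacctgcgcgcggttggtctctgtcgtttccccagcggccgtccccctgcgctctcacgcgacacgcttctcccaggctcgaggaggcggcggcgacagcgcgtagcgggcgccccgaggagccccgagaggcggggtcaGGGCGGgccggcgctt
Abca2, chr2:25428349-25428598, plus strand: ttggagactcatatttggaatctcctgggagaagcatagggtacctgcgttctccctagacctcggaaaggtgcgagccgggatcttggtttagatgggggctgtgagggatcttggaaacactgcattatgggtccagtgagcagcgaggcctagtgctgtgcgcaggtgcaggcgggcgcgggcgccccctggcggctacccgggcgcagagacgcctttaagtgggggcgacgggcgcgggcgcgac
Abca4, chr3:122044210-122044459, plus strand: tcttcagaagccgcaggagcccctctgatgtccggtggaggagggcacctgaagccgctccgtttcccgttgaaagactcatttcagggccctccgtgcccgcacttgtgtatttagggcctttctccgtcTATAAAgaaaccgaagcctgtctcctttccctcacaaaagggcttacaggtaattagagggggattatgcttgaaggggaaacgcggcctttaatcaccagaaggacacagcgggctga
Abcb1b, chr5:8797897-8798146, plus strand: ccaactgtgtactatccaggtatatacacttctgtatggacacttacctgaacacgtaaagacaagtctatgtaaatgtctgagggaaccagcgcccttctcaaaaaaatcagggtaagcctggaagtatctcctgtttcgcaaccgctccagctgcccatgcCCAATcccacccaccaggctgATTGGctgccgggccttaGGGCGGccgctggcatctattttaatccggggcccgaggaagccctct
Among all 32851 promoter windows of this length, 6.02% held the E-box, 14.02% the half-site, 32.7% the GC box, 33.8% CCAAT, 12.4% the TATA box and 0.925% the xenobiotic response element. Abcc4 held an E-box at -205 and GC boxes at -191, -167 and -16, Abcb1b CCAAT at -87 and -66 and a GC box at -48, and Abca4 a TATA box at -119, counted from the start site. In the window of Abca2 none of the 6 motifs was found. Over the 23 tested members, the GC box was in 14, CCAAT in 4, the E-box, the half-site and the TATA box in 3 each, and the xenobiotic response element in 0. The 23 include Abcc10 and also Abcb1a, whose entry starts 92986 bases from its GENCODE start. The shares over all windows are not limited to tested genes, so they are no matched background for these counts.

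Under efflux of drugs and conjugates across the barrier 11 members were listed, of which 9 were tested. Of these 1 rose and 2 fell, beside 6.71% of all genes higher and 6.09% lower. Abcc4 (ENSMUSG00000032849.13, chromosome 14 from 118482692 to 118706219, minus strand) encodes an exporter of cyclic nucleotides, prostaglandins and nucleoside drugs. Its levels in *APOE3* cultures ran from 697 to 883 CPM with a median of 722, and in *APOE4* cultures from 484 to 669 CPM with a median of 642. All 8 *APOE4* cultures lay below all 8 *APOE3* cultures, which was true of no other member and of 0.625% of all genes in either direction. The mean went from 769 ± 78.7 to 612 ± 66.9 CPM (SD, n = 8 per genotype), a log2 fold change of -0.33 (standard error 0.0684, adjusted p = 0.0080), or 0.796 times the *APOE3* level. The lowest culture, a male labelled *APOE4* replicate 35, had 484 CPM, and the call held when it or any of the other cultures was left out in turn.

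Abcc10 (ENSMUSG00000032842.13, chromosome 17 from 46303221 to 46328352, minus strand), which encodes the multidrug resistance-associated protein MRP7, was transcribed at a far lower level. *APOE3* cultures had 11.8 to 17.6 CPM (median 14.9) and *APOE4* cultures 9.82 to 13.03 CPM (median 11.5). Of the *APOE4* cultures, 5 lay below every *APOE3* culture and 3 within their range. From 14.7 ± 2.21 to 11.6 ± 1.02 CPM, the log2 fold change was -0.35 (standard error 0.0876, adjusted p = 0.0152), and it was called in 16 of 16 fits with 1 culture left out.

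The mouse divides the P-glycoprotein of humans between Abcb1a, the form known from brain capillaries, and Abcb1b, which lie side by side on chromosome 5. Abcb1a (ENSMUSG00000040584.8, from 8660077 to 8748575, plus strand) had 442 to 524 CPM in *APOE3* (median 499) and 401 to 517 CPM in *APOE4* (median 499.6). Its ranges overlapped in 7 of 8 *APOE4* cultures, with *APOE4* replicate 35 below all others. The log2 fold change was -0.04 (standard error 0.0480, adjusted p = 0.671). Abcb1b (ENSMUSG00000028970.9, from 8798147 to 8866315, plus strand) had 59.4 to 77.9 CPM in *APOE3* (median 69.3) and 70.8 to 92.1 CPM in *APOE4* (median 79.8). Of the *APOE4* cultures, 5 lay above every *APOE3* culture. Its mean rose from 69.7 ± 7.18 to 80.4 ± 7.30 CPM, with a log2 fold change of 0.21 (standard error 0.0627, adjusted p = 0.0359). The call held in 8 of 16 fits with 1 culture left out, with an adjusted p of up to 0.0846. It was lost without *APOE3* replicate 26, 28, 30 or 33 or *APOE4* replicate 35, 37, 40 or 41. Of 9 other settings, 6 kept the call. Those that lost it were GC content and length corrected, and the cell cycle or the pericyte and smooth muscle score as a covariate.

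Both genes share sequence, so some reads could be counted for either or dropped. Their coding sequences of 3831 bases each were 88.1% identical over 3822 aligned bases in GENCODE M21 transcripts. The longest stretch without a difference was 338 bases, at positions 1357 to 1694 of the Abcb1a and 1366 to 1703 of the Abcb1b coding sequence. The 150 bases at 1511 to 1660 of Abcb1a and 1520 to 1669 of Abcb1b are shown because they hold, in capitals, the codons of the ABC signature motif, the ATPase element that marks the family.
Abcb1a and Abcb1b, shared coding sequence: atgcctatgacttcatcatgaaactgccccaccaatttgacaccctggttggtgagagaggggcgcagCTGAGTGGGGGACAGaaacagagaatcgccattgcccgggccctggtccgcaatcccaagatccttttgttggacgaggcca
Of the 50-base words in their exons, 17.6% for Abcb1a and 11.6% for Abcb1b also occur in transcripts of another gene, and Abcb1b held 10.96% to 16.9% of the counts of the pair. With both counted as 1 gene, the log2 fold change was -0.0031 (standard error 0.0431, adjusted p = 0.973).

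**Figure D3:**
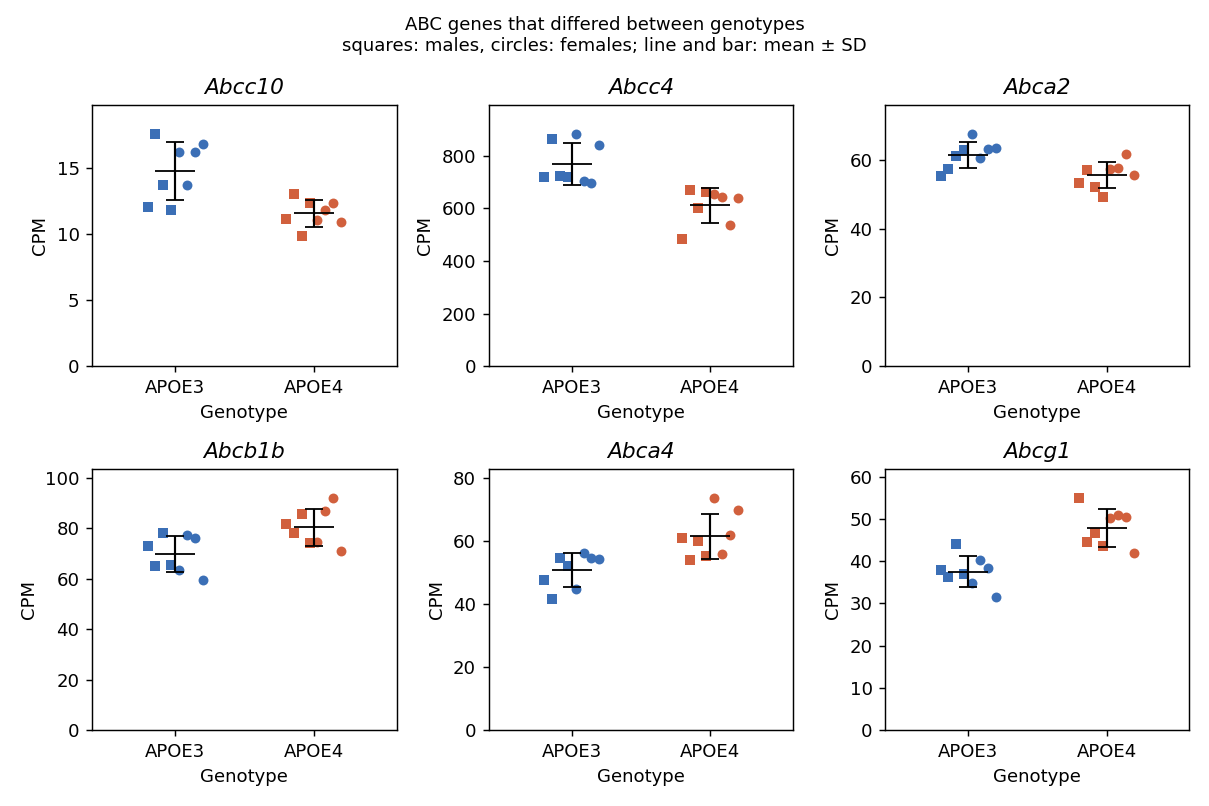
CPM of the 6 ABC genes that differed between genotypes in each culture (squares: males, circles: females), with the mean and SD of 8 cultures per genotype on axes that start at 0. The genotypes separate fully for Abcc4 and overlap for the others.

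The remaining efflux transporters showed no called difference. Abcg2 (ENSMUSG00000029802.13, chromosome 6 from 58584523 to 58695676, plus strand) had 500.2 to 565 CPM in *APOE3* (median 536) and 474 to 557 CPM in *APOE4* (median 504). The *APOE4* cultures lay below the *APOE3* median in 7 of 8 cases, and the log2 fold change was -0.07 (standard error 0.0361, adjusted p = 0.182). Abcc5 (ENSMUSG00000022822.15, chromosome 16 from 20331303 to 20426394, minus strand), an exporter of cyclic nucleotides and folate conjugates, had 106 to 117 CPM in *APOE3* (median 112) and 94.3 to 114 CPM in *APOE4* (median 105), with 5 *APOE4* cultures below all *APOE3* cultures. Its log2 fold change of -0.08 (standard error 0.0344, adjusted p = 0.107) passed the threshold in 1 of 16 fits with 1 culture left out. Abcc1 (ENSMUSG00000023088.16, chromosome 16 from 14361558 to 14475737, plus strand), which exports glutathione conjugates, had 62.9 to 76.8 CPM in *APOE3* (median 71.1) and 66.5 to 81.3 CPM in *APOE4* (median 72.1), and a log2 fold change of 0.04 (standard error 0.0510, adjusted p = 0.628). Abcc3, an exporter of glucuronides, had 9.41 ± 2.29 and 11.4 ± 2.78 CPM (log2 fold change 0.28, standard error 0.151, adjusted p = 0.235), and Abcc6, whose loss in humans leads to calcified elastic tissue, 14.9 ± 1.45 and 15.7 ± 2.47 CPM (0.08, standard error 0.0897, adjusted p = 0.602).

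**Figure D4:**
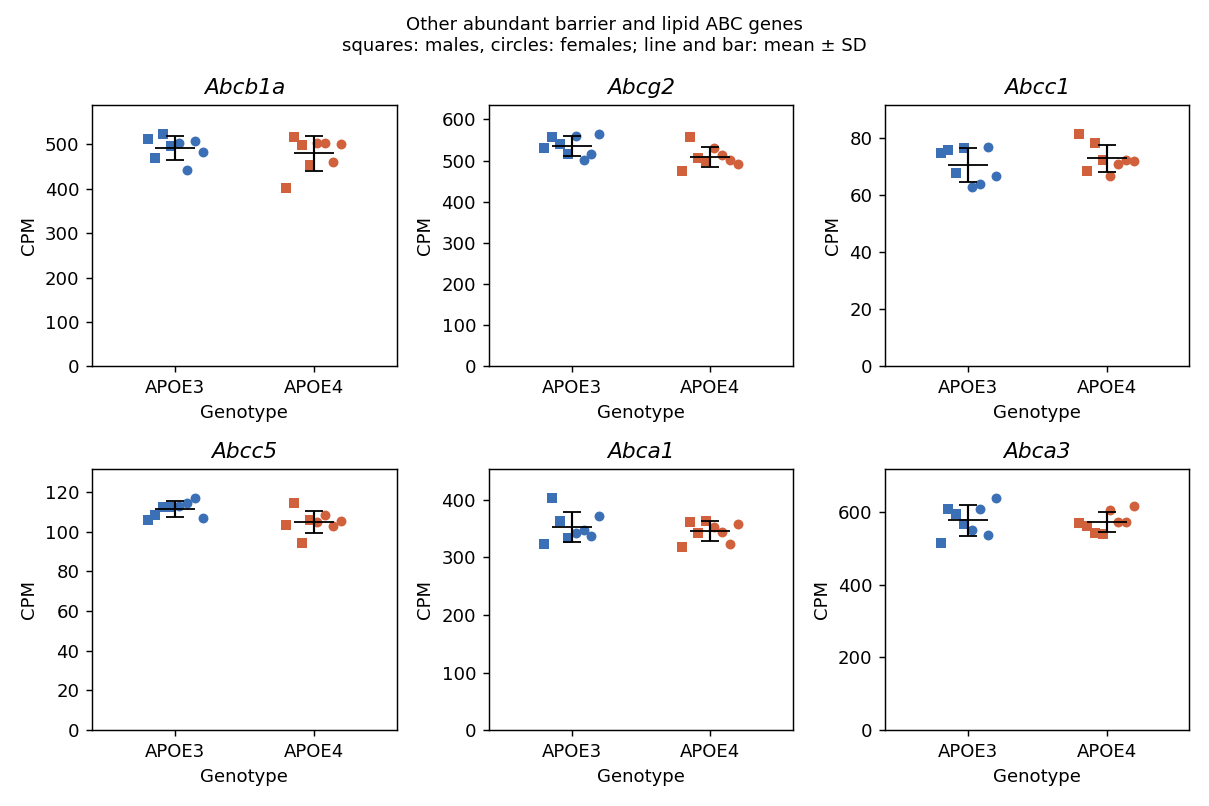
CPM of 6 abundant barrier and lipid ABC genes without a called difference in each culture (squares: males, circles: females), with the mean and SD of 8 cultures per genotype on axes that start at 0. The ranges of both genotypes overlap for each gene.

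Under export of sterols and phospholipids 14 members were listed, of which 8 were tested. Of these 1 rose and 1 fell, beside 6.71% of all genes higher and 6.09% lower. Abcg1 (ENSMUSG00000024030.6, chromosome 17 from 31057675 to 31117988, plus strand) moves cholesterol towards high-density lipoprotein particles. Its levels ran from 31.6 to 44.2 CPM in *APOE3* (median 37.4) and from 42.0 to 55.0 CPM in *APOE4* (median 48.5). Of the *APOE4* cultures, 6 were above every *APOE3* culture, and the highest *APOE3* culture was replicate 27. The rise from 37.5 ± 3.73 to 47.9 ± 4.47 CPM gave a log2 fold change of 0.35 (standard error 0.0636, adjusted p = 0.0057), 1.28 times the *APOE3* level, with the smallest adjusted p of the family, and was called in 16 of 16 fits with 1 culture left out.

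Abca1 (ENSMUSG00000015243.4, chromosome 4 from 53030787 to 53159895, minus strand), which loads cholesterol onto lipid-poor apoA-I and apoE, did not pass the test. It had 323 to 404 CPM in *APOE3* (median 345) and 318 to 362 CPM in *APOE4* (median 349), so that 6 of 8 *APOE4* cultures were within the *APOE3* range. Its log2 fold change was -0.03 (standard error 0.0437, adjusted p = 0.683).

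Abca2 (ENSMUSG00000026944.18, chromosome 2 from 25428703 to 25448540, plus strand), a lysosomal lipid transporter abundant in oligodendrocytes, had the largest adjusted p of the 6 members called. It had 55.2 to 67.5 CPM in *APOE3* (median 62.0) and 49.3 to 61.6 CPM in *APOE4* (median 56.3), and 3 *APOE4* cultures lay below every *APOE3* culture. From 61.4 ± 3.82 to 55.5 ± 3.80 CPM, the log2 fold change was -0.14 (standard error 0.0466, adjusted p = 0.0459). Only 5 of 16 fits with 1 culture left out called it, those without *APOE3* replicate 25, 26 or 31 or *APOE4* replicate 36 or 41, and the adjusted p reached 0.103. Its adjusted p was 0.0618 when genes of low count were kept and 0.218 with GC content and length corrected. The oligodendrocyte markers Olig1 and Olig2 had no count, and the summed level of the 8 markers of that cell was 24.5 to 32.2 CPM in *APOE3* and 31.6 to 38.0 CPM in *APOE4*, most of it Cnp.

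The other tested members listed under export of sterols and phospholipids had no called difference. Abca7, a phospholipid transporter related to Abca1, had 53.6 ± 1.98 and 55.7 ± 4.65 CPM (log2 fold change 0.06, standard error 0.0463, adjusted p = 0.452). For Abca5, a lysosomal sterol transporter, all 8 *APOE4* cultures were above the *APOE3* median of 14.3 CPM, and the log2 fold change of 0.19 (SE 0.0738) had an adjusted p of 0.0867. Abca8b and Abca9 had 0.39 (standard error 0.225, adjusted p = 0.271) and 0.27 (standard error 0.180, adjusted p = 0.345) on the log2 scale. Abcg3 had the largest fitted change of the family, 0.90, with an SE of 0.455 (adjusted p = 0.200) on counts of 1 to 23 per library.

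Among the transporters known from lung, retina and skin, 2 of 8 were tested and 1 rose, beside 6.71% of all genes. Abca4 (ENSMUSG00000028125.14, chromosome 3 from 122044443 to 122180123, plus strand) is the retinoid transporter of photoreceptors. It had 41.6 to 56.2 CPM in *APOE3* (median 53.2) and 54.1 to 73.8 CPM in *APOE4* (median 60.5). Of the *APOE4* cultures, 5 lay above every *APOE3* culture, with the females replicates 39 and 43 highest. Its mean rose from 50.7 ± 5.39 to 61.5 ± 7.07 CPM, for a log2 fold change of 0.28 (standard error 0.0711, adjusted p = 0.0170), called in 16 of 16 fits with 1 culture left out. Abca3, transcribed at 577 ± 42.5 and 572 ± 26.8 CPM, had a log2 fold change of -0.01 (standard error 0.0433, adjusted p = 0.876), and 9.75% of its exon length overlaps a gene on the other strand, D330041H03Rik, which had 281 counts over all libraries. Such overlaps also cover 10.31% of Abcb10 (Gm45890) and 10.09% of Abcb1a (Gm42686), whose partners had 0 counts, and 0.744% of Abcc10 (Dlk2, 24 counts). The libraries select strand per the labels, but whether the counting used it is not given in the sources used here.

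The D subfamily is known for peroxisomal carriers of very long chain fatty acids, and 3 of its 4 members were tested. Of these 0 were called at the adjusted threshold and 0 had an unadjusted p under 0.05, beside 12.8% and 28.98% of all genes. Abcd3 had a log2 fold change of -0.01 (standard error 0.0430, adjusted p = 0.877) and Abcd4, which acts not in peroxisomes but in lysosomal cobalamin export, one of -0.10 (standard error 0.0576, adjusted p = 0.291). For Abcd4 all 8 *APOE4* cultures were below the *APOE3* median of 30.8 CPM. All 5 half-transporters of mitochondria and lysosomes were tested. Again 0 were called and 0 had an unadjusted p under 0.05, beside 12.8% and 28.98% of all genes. Abcb10, which supports heme synthesis, had a log2 fold change of -0.07 (SE 0.0515), Abcb8 -0.09 (SE 0.0617), the lysosomal peptide transporter Abcb9 0.02 (SE 0.121) and Abcb6 0.10 (SE 0.213), with adjusted p from 0.337 to 0.924. The counts of Abcb6 are uncertain, since 50.01% of its 50-base words also lie in Gm29253 on the same strand.

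All 4 ribosome-bound members were tested. By edgeR 0 were called at the adjusted threshold and 0 had an unadjusted p under 0.05, beside 12.8% and 28.98% of all genes. Abce1, which splits ribosomes after termination, had a log2 fold change of 0.08 (standard error 0.0391, adjusted p = 0.193), Abcf1 of 0.00 (standard error 0.0339, adjusted p = 0.993), Abcf2 of -0.05 (standard error 0.0314, adjusted p = 0.290) and Abcf3 of -0.08 (standard error 0.0485, adjusted p = 0.276). Within *APOE3* cultures the coefficient of variation of CPM was 2.54% for Abcf2, against 10.2% for Abcc4 and 83.4% for Abcg3, the lowest and highest of the 31 tested members being Abcf2 and Abcg3.

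The 6 differences had the same sign in males and females, with 4 cultures per sex and genotype. The 6 members were called on these same cultures of both sexes, so a shared sign is not independent support. Abcc4 had log2 fold changes of -0.32 (SE 0.101) in males and -0.34 (SE 0.101) in females. For Abcc10 they were -0.25 (SE 0.123) and -0.44 (SE 0.121), for Abcg1 0.29 (SE 0.0920) and 0.42 (SE 0.0922). Abca4 had 0.23 and 0.32, Abcb1b 0.18 and 0.23, and Abca2 -0.16 and -0.13. Within a sex, edgeR called 0 members in males and 0 in females, as it did 0.00% of all genes in each, while 5 members in males (14.2% of all genes) and 9 in females (19.5% of all genes) had an unadjusted p under 0.05. Among the members, the smallest adjusted p in females was that of Abcg1, 0.0608. Without *APOE3* replicate 31, a female, 4 members were called in females (Abcg1, Abcc10, Abcc4 and Abca4) beside 6.99% of all genes, and without *APOE4* replicate 35, a male that enters through the shared estimate of the spread, 2 (Abcg1 and Abcc4) beside 2.08% of all genes.

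A test of the difference between the sexes in the genotype effect called 0 members and 0.00% of all genes, with 2 members at an unadjusted p under 0.05 (2.76% of all genes). These were Abca5, with a log2 fold change of 0.34 (SE 0.0943) in males and 0.05 (SE 0.0931) in females, and Abcb8, with 0.04 (SE 0.0776) in males and -0.23 (SE 0.0777) in females. Female against male over both genotypes, 0 members and 0.0721% of all genes were called (0.0401% higher and 0.0320% lower in females). At an unadjusted p under 0.05 were 3 members (4.26% of all genes), with log2 fold changes of 0.12 for Abca2, -0.11 for Abcc1 and 0.14 for Abca4.

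The genotypes also differed in cell cycle transcripts. Of 25 cell cycle genes 23 were higher with *APOE4*, beside 6.71% of all genes. The mean log2 CPM of the 25 ran from 5.23 to 6.30 in *APOE3* (median 5.72) and from 5.99 to 6.78 in *APOE4* (median 6.30). With this score as a covariate, 0 members and 0 of the 12481 genes were called by edgeR, and 4 members had an unadjusted p under 0.05 (Abcg1, Abca4, Abca5 and Abcf2), beside 7.11% of all genes. The log2 fold changes then were -0.10 (SE 0.0614) for Abcc4, -0.24 (SE 0.121) for Abcc10, -0.11 (SE 0.0642) for Abca2, 0.13 (SE 0.0596) for Abcg1, 0.21 (SE 0.0954) for Abca4 and 0.01 (SE 0.0632) for Abcb1b. With the pericyte and smooth muscle score as a covariate, 4 of the 6 were called (Abcc4, Abcc10, Abcg1 and Abca4) beside 10.2% of all genes, and Abca2 and Abcb1b had adjusted p of 0.0609 and 0.0616. The part of either in the differences was not tested.

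**Figure D5:**
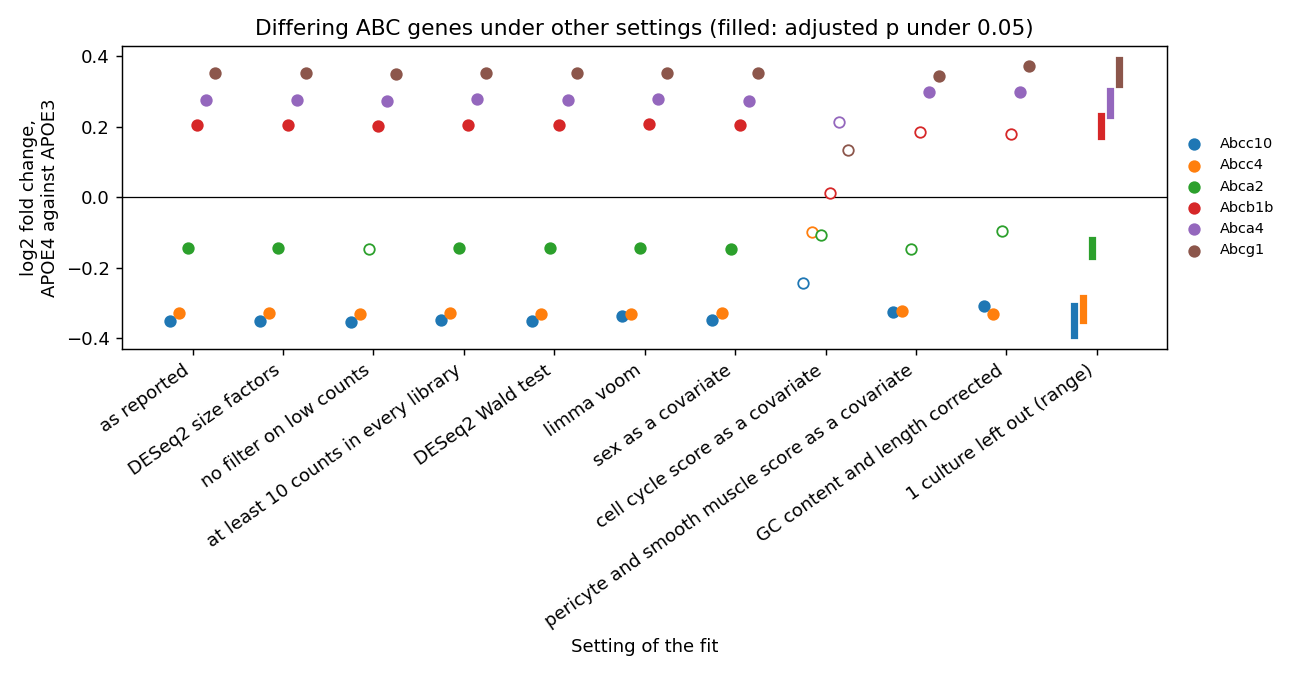
Log2 fold change, *APOE4* against *APOE3*, of the 6 ABC genes that differed, as reported and under each other setting, where filled points have an adjusted p under 0.05 and bars at the right give the range with 1 culture left out. All 6 points are open and nearer to 0 once the cell cycle score is a covariate, a fit that called 0 of 12481 genes.

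Genes that work with these transporters were read from lists by role. Of ABC proteins with other symbols, Cftr, a chloride channel of the C subfamily, rose from 5.12 ± 1.45 to 7.16 ± 1.12 CPM (log2 fold change 0.49, standard error 0.148, adjusted p = 0.0363). The peptide transporter subunits Tap1 and Tap2 had log2 fold changes of 0.01 (standard error 0.0509, adjusted p = 0.912) and -0.04 (standard error 0.0328, adjusted p = 0.497). Of their 5 peptide loading partners 2 rose, beside 6.71% of all genes. These were B2m, the light chain of MHC class I, by a log2 fold change of 0.32 (SE 0.0549) and the chaperone Pdia3 by 0.17 (SE 0.0356). Of 16 genes of sterol efflux and its liver X receptor (LXR) control, 2 rose and 4 fell, beside 6.71% and 6.09% of all genes. Among those that rose, Soat1, which esterifies cholesterol, had a log2 fold change of 0.23 (SE 0.0717). Among those that fell, Nr1h2, which encodes LXR beta, had -0.17 (SE 0.0379), the phospholipid transfer protein Pltp -0.29 (SE 0.0749) and the cholesteryl ester hydrolase Nceh1 -0.17 (SE 0.0506). Human *APOE* itself, the acceptor protein and the replaced gene, had 1172 ± 174 CPM in *APOE3* and 796 ± 134 CPM in *APOE4* (log2 fold change -0.56, standard error 0.0986, adjusted p = 0.0054).

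Of 11 receptors and factors known to control transporter genes, 7 were tested and 1 fell, beside 6.09% of all genes. Ahr, the receptor for dioxin and other xenobiotics, went from 36.4 ± 5.98 to 23.6 ± 4.47 CPM, for a log2 fold change of -0.63 (standard error 0.110, adjusted p = 0.0054). The xenobiotic receptors Nr1i2 and Nr1i3 were too low to test, with at most 5 and 11 counts in a library. Of 9 peroxisome partners, 1 fell, beside 6.09% of all genes, namely the thiolase Acaa1a with -0.19 (SE 0.0431). Of 10 genes of iron-sulfur and heme synthesis, 1 rose and 1 fell, beside 6.71% and 6.09% of all genes. Alas1, the first enzyme of heme synthesis, rose by 0.25 (SE 0.0788) and the glycine carrier Slc25a38 had -0.23 (SE 0.0636) on the log2 scale. The 7 ribosome recycling and initiation partners in the table had 0 calls by edgeR, beside 12.8% of all genes. The potassium channel pores that pair with the sulfonylurea receptors were not tested, with Kcnj11 at 0 in every library.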

How the data were processed

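Poly-A RNA of 16 brain endothelial cultures was sequenced. The authors deposited 1 table of raw read counts per gene. The submitters' processing notes name STAR, featureCounts, mm10 and hg38, and their roles, versions and strand setting are not given in the sources used here. Of 39057 rows, 38873 matched GENCODE M21 or human *APOE*, which gave symbols, positions and exon lengths. Differences were tested in edgeR 4.0.16 under R 4.3.3 (filterByExpr by genotype, TMM normalization, quasi-likelihood F test, Benjamini-Hochberg adjustment over 12481 genes, threshold 0.05), with limma 3.58.1 and DESeq2 1.42.0 as alternatives. Effects within sexes came from 1 fit of 4 groups. CPM used normalized library sizes. A score is a mean log2 CPM with a prior count of 2. Reads carry no molecular identifiers, so depth (12717847 to 18624417 counts, a floor of 3) covers counting error only.

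Members and lists were chosen with earlier results of these data known. Every member could be named. All library values were read for called members and for Abcb1a, Abcb1b, Abcg2, Abcc1, Abcc4, Abcc5, Abca1 and Abcg1. Of other lists, called genes and Tap1, Tap2 and Cftr were named, and Nr1i2, Nr1i3 and marker genes at or near 0 were named after their values were seen. Alternatives were other normalization, filters, tests and covariates, GC and length correction by splines with 5 degrees of freedom, and leaving out each culture. The values of some genes are not reported here. The fits were tested on simulated data. No pair of libraries was identical (0 pairs). Promoter sequences are RefSeq's (GRCm38.p6), and figures and sequence searches used Python 3.11.15 with Biopython 1.88 and matplotlib 3.10.9.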

Additional observations from a re-analysis of the deposited data

Results flagged for a closer look

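In 2 of 62 groups of 8 cultures, 1 culture stood apart from the rest by Dixon's criterion, which chance meets in about 1 in 20 groups. Abcb6 had 1.91 CPM in *APOE3* replicate 26, against 1.09 CPM in the next highest *APOE3* culture, at 11 to 29 counts per library, and without this culture its log2 fold change went from 0.10 to 0.29 (adjusted p = 0.345 by edgeR). Abcb9 had 3.31 CPM in *APOE3* replicate 25, against 4.89 CPM in the next lowest, and without this culture its log2 fold change went from 0.02 to -0.05. Neither gene was called. *APOE3* replicate 25 was the lowest of the 16 cultures for 6 and the highest for 5 of the 31 tested members.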

How the results depend on the processing

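Of the 6 calls, Abcc4, Abcc10, Abcg1 and Abca4 held in 16 of 16 fits with 1 culture left out. They also held under every other setting except the cell cycle score as a covariate. With that score 0 members and 0 of 12481 genes were called. The number of members called was 4 to 7 with 1 culture left out, beside 6.74% to 16.9% of all genes. It was 5 without a filter on low counts (5.74% of all genes). With GC content and length corrected it was also 5 (12% of all genes), where Abcg2 was called with -0.13 and Abca2 and Abcb1b were not called. With the pericyte score it was 4 (10.2% of all genes), and elsewhere 6 (12.2% to 16.1% of all genes). In females the number called was 0 to 4 with 1 culture left out, beside 0.00% to 6.99% of all genes. No paired analysis was possible because the labels give each culture its own number. With a floor of 1 count in place of 3, 1 member stayed at or under it. By longest transcript, Abcb1a, Abcg2 and Abca3 had 97.2, 91.3 and 88.7 CPM per kilobase. Depth limits Abcg3, Abca8b, Abca9 and Abcb6, each under 50 counts per library.

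Over all settings, the fold change of 29 tested members kept its direction and its side of the threshold in 662 cases, lost a call in 30, gained one in 2 and turned its sign in 30. Except for the sum of Abcb1a and Abcb1b, entered under Abcb1b, the signs that turned were those of members that had not been called. With the cell cycle score these were Abca1 (0.033), Abca9 (-0.208), Abcb1a (0.068), Abcb9 (-0.11), Abcc1 (-0.017), Abcc3 (-0.13), Abcd3 (0.0060), Abcd4 (0.037), Abcf1 (-0.052) and Abcg2 (0.015). With the pericyte score Abca3 had 0.00011, and with GC content and length corrected Abca3 had 0.018. With Abcb1a and Abcb1b summed, an alternative added after seeing the data, the change was -0.0031. Abcb1b held 10.96% to 16.9% of the summed counts, so this value mostly reflects Abcb1a and does not test the direction of Abcb1b. Abcf1 had -9.6e-07 with DESeq2's size factors, -0.0025 without a filter and -0.00012 by DESeq2's Wald test. With 1 culture left out, Abcf1 ran from -0.015 to 0.014, Abca3 from -0.037 to 0.0086, Abcb9 from -0.051 to 0.065 and Abcd3 from -0.028 to 0.0084. The cause of these changes was not tested.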
